A study of Mus musculus with 16 samples.

Results

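Cerebellar granule cell genes are described here through 10 genes: Neurod1, Pax6, Zic1, Zic2, Etv1, Cbln1, Cbln3, Fat2, Calb2 and Rbfox3. They were chosen by name as genes of this neuron, with earlier results of these data known. All 10 were found among the 17074 genes of the deposited expression table. RNA-Seq was performed on cerebellum of female C57BL/6 mice in 4 groups of 4 libraries, 16 in all: control mice at 2 months (young control), Acsl6-/- mice at 2 months (young Acsl6-/-), control mice at 18 months of natural aging (aged control) and Acsl6-/- mice at 18 months of natural aging (aged Acsl6-/-). ACSL6 is an enzyme of fatty acid activation, and the study reports that it enriches brain membrane phospholipids with DHA. The deletion was made in the whole body by crossing the floxed Acsl6 allele (Acsl6 flox/flox) with CMV-Cre, so the model cannot place its effects in granule cells. All mice were fed a chow free of DHA, and the labels number the libraries of a group 1 to 4 without saying whether a library was 1 animal. The values are normalized counts, which are exon read counts per gene divided by 1 size factor per library.

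Granule cells are the small excitatory neurons of the cerebellar cortex and the most numerous neurons of the brain. They receive mossy fiber input and send out parallel fibers, which release glutamate onto Purkinje cells. They arise from precursors in the external layer of the young cerebellum, and transcription factors of the bHLH, zinc finger, paired and ETS families set and keep their identity, whereas synaptic organizers of the cerebellin family hold the parallel fiber synapse together.

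The libraries held 16953548 to 27569428 recovered reads. Acsl6, the targeted gene, stood at 5839 to 6973 normalized counts in the 8 control libraries and at 2101 to 2336 in the 8 Acsl6-/- libraries, so the groups matched their labels although reads of the locus remained. A normalized count of Ttr, which marks choroid plexus, above 5000 was found in 5 libraries, namely library 1 and library 4 of the young control group, library 3 and library 4 of the aged control group, and library 1 of the aged Acsl6-/- group. Of these, aged control 3 also held 686717 normalized counts of Gm42418 against 11003 to 41707 in the other libraries. Counts without these libraries are given beside the results. All members were well above 0 in every library: the lowest value of any member was 2477 normalized counts, and their sum took 0.522% to 0.751% of all normalized counts. No other tissue was compared.

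Sequence upstream of 3 members is shown because Neurod1 is a bHLH factor that binds E-boxes, because these 3 are lower with age in both genotypes, and because their RefSeq promoter windows hold the start of the gene in the GENCODE annotation. Each stretch ends just before the earlier of the RefSeq and GENCODE starts, runs 5′ to 3′ on the gene's strand, and has the E-box (CANNTG) in capitals. The Neurod1 stretch is chr2:79456752-79456886, the Cbln3 stretch is chr14:55884393-55884506 and the Zic1 stretch is chr9:91365811-91366018, all on the minus strand of GRCm38.p6.
Neurod1: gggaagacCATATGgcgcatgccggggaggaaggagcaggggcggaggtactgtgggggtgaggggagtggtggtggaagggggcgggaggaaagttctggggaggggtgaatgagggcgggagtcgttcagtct
Cbln3: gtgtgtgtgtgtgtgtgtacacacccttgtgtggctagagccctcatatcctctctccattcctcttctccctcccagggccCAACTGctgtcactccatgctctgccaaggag
Zic1: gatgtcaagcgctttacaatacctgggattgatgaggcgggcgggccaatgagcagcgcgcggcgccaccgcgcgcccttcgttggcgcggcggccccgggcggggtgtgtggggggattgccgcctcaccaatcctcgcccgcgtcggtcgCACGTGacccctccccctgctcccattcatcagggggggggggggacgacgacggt
RefSeq promoter windows were found for 7 of the 10 members, and 9 windows in all since Pax6 and Etv1 have more than 1. In the 250 bases before the start, CANNTG, searched on both strands (its own reverse complement), was found in 7 of the 9 windows and in 66.2% of all 32851 promoter windows. The narrower CAGATG, a form bound by Neurod1 and itself a CANNTG, was found in 1 of the 9, a window of Etv1, against 14.4% of all windows. A Zic motif, CCTGCTG, and the full NFI palindrome (TTGGC and its reverse complement 5 bases apart) were found in 0 of the 9, against 8.44% and 0.0365% of all windows. These are matches of letters and were set against no binding data.

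With age, the granule cell genes were lower in both genotypes. In control mice all 10 members were below the young mean, and 9 of the 10 passed the test (limma on log2(normalized count + 1), all 4 groups in 1 model, Benjamini-Hochberg over 17042 genes, called at an adjusted p under 0.05), against 16% of all genes called lower and 15.3% called higher. In Acsl6-/- mice all 10 were again below the young mean and 8 passed, against 11.6% of all genes called lower and 11.6% called higher. The median log2 fold change of the members was −0.37 in control and −0.29 in Acsl6-/- mice, beside medians of all genes of 0.006 and −0.0001. Every aged library was below every young library for 8 of the members in control mice (15.5% of all genes) and for 6 in Acsl6-/- mice (12.2% of all genes). Without the 5 libraries high in Ttr, a fit of fewer samples, 7 members passed in each genotype. In that fit 1434 of all genes were called lower in control mice, against 2723 with all libraries. In Acsl6-/- mice 1833 were, against 1976. In bulk tissue, fewer cells of a type and less RNA per cell cannot be told apart.

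**Figure D1:**
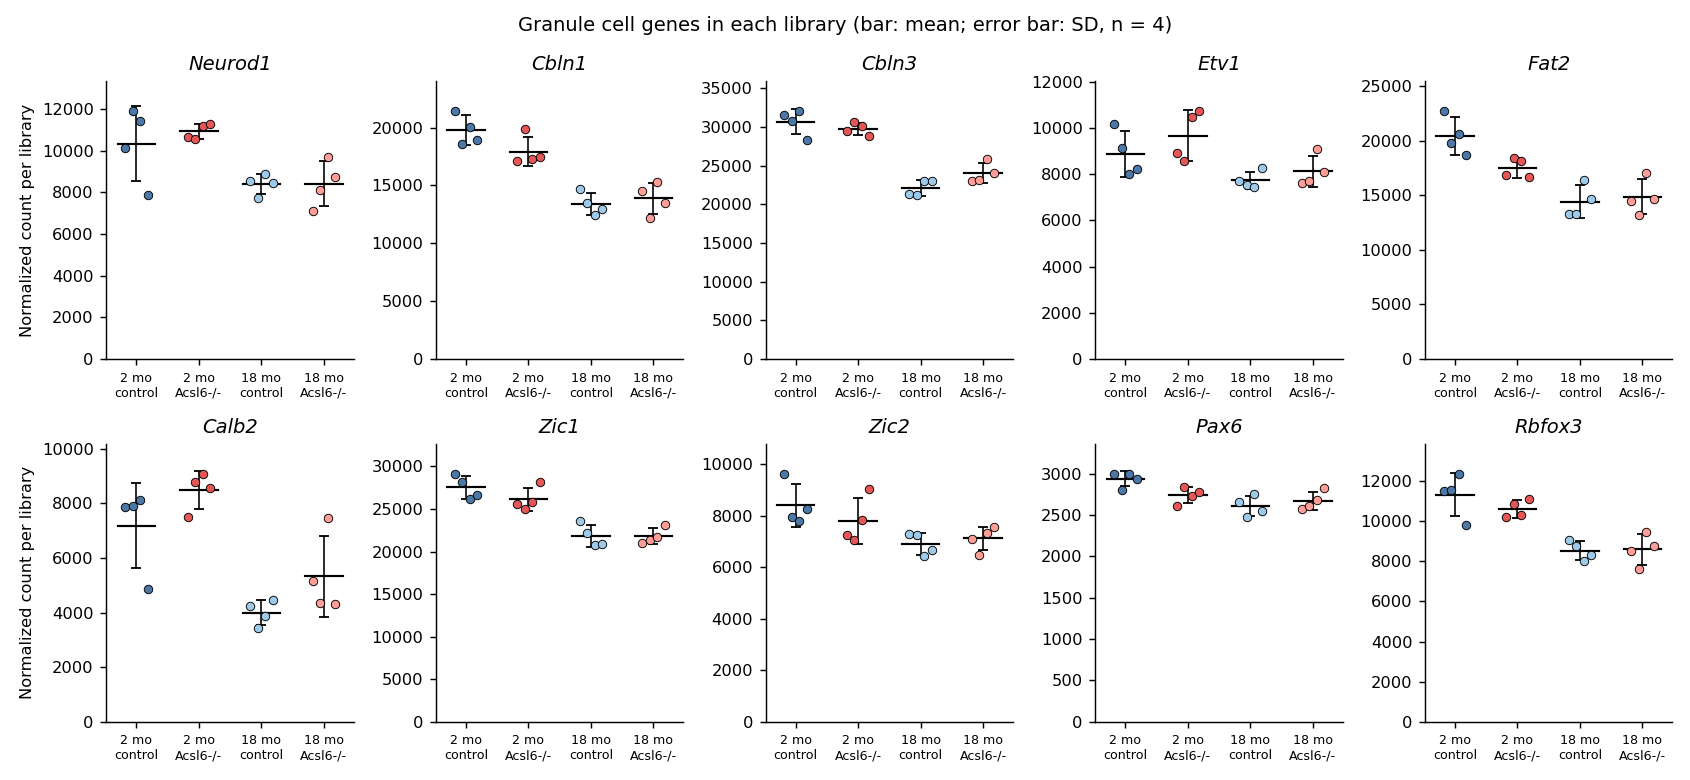
Normalized count of each of the 10 granule cell genes (y axis, from 0) in each library, by group (x axis: 2 or 18 months, control or Acsl6-/-). Each point is 1 library, the bar is the mean and the error bar the SD of 4 libraries. The aged groups sit lower than the young groups of the same genotype for most genes, and 1 young control library stands low in Calb2 at 4847.

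The summed level of the 10 genes separated the ages. Young control libraries held 0.751%, 0.712%, 0.723% and 0.654% of all normalized counts in these genes, and young Acsl6-/- libraries 0.661%, 0.704%, 0.689% and 0.688%. Aged control libraries held 0.559%, 0.527%, 0.522% and 0.546%, and aged Acsl6-/- libraries 0.555%, 0.529%, 0.617% and 0.573%. The highest aged library lay under the lowest young library in each genotype, so the groups did not overlap. Within the aged Acsl6-/- group, library 3 was the highest of its group for 7 of the 10 members, and within the young control group library 4 was the lowest for 5.

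The cerebellins are the most abundant members per length. Cbln1 (chr8:87468405-87472609, minus strand) encodes a secreted organizer that bridges neurexins on parallel fibers and a receptor on Purkinje cells, and Cbln3 (chr14:55878913-55884392, minus strand) is its partner, made nearly only by granule cells and secreted with the help of Cbln1. Cbln1 stood at 21443, 18538, 20072 and 18958 normalized counts in young control and at 14680, 13460, 12453 and 12982 in aged control libraries. Every aged control library was below every young one, and the aged mean was 0.678 times the young mean (log2 fold change −0.56, 95% interval −0.70 to −0.42, adjusted p = 1.02e-05). The Acsl6-/- libraries had Cbln1 at 17125, 19831, 17298 and 17447 when young and at 14545, 12209, 15275 and 13479 when aged. These groups did not overlap either, with an aged mean 0.774 times the young mean (log2 fold change −0.37, −0.51 to −0.23, adjusted p = 0.000686).

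Cbln3 had the smallest p of the 10 in both genotypes. It stood at 31570, 30719, 32075 and 28363 normalized counts in young control and at 21382, 21148, 22973 and 23039 in aged control libraries, with the highest aged library far under the lowest young one. The aged mean was 0.721 times the young mean (log2 fold change −0.47, −0.57 to −0.37, adjusted p = 1.35e-06). Among Acsl6-/- mice it stood at 29409, 30674, 30098 and 28784 when young and at 23038, 23098, 25838 and 24091 when aged. Here too the groups did not overlap, and the aged mean was 0.808 times the young mean (log2 fold change −0.31, −0.41 to −0.21, adjusted p = 0.000135).

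Fat2 (chr11:55250609-55336564, minus strand), a giant atypical cadherin found on parallel fibers, fell by about as much as Cbln1 in control mice. It stood at 22746, 19803, 20633 and 18661 normalized counts in young control and at 13332, 13331, 16438 and 14634 in aged control libraries, with no overlap (ratio 0.705, log2 fold change −0.51, −0.67 to −0.34, adjusted p = 9.33e-05). The Acsl6-/- values were 16821, 18441, 18177 and 16666 when young and 14513, 13182, 17081 and 14704 when aged. Aged library 3 lay within the young range there, and the call was near the threshold (ratio 0.848, log2 fold change −0.24, −0.40 to −0.08, adjusted p = 0.0292). It was lost on leaving out young Acsl6-/- 2 or 3 (adjusted p = 0.0752 and 0.0772) or aged Acsl6-/- 1, 2 or 4 (0.0612, 0.108 and 0.0605), with log2 fold changes of −0.31 to −0.19 over all 16 such fits, and under quantile normalization (−0.18, 0.119).

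Calb2 (chr8:110137502-110168210, minus strand), which encodes the calcium buffer calretinin of granule cells and of unipolar brush cells, had the largest fold of the 10 with age. It stood at 7879, 7897, 8124 and 4847 normalized counts in young control and at 4231, 3435, 3878 and 4456 in aged control libraries. Young control 4 stood far below the other young control libraries and only just above the aged ones, so that the groups did not overlap. The aged mean was 0.557 times the young mean (log2 fold change −0.82, −1.16 to −0.49, adjusted p = 0.000815). Calb2 in Acsl6-/- mice stood at 7491, 8794, 9097 and 8569 when young and at 5164, 4367, 7481 and 4327 when aged. Aged Acsl6-/- 3 came close to the lowest young library, while the other 3 stayed well below, and the ratio was 0.629 (log2 fold change −0.70, −1.04 to −0.37, adjusted p = 0.00372). Its SD in the aged Acsl6-/- group was 27.8% of the mean, the widest of all members and groups.

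The zinc finger factors Zic1 and Zic2 specify cerebellar neurons and stay on in mature granule cells. Zic1 (chr9:91358058-91365810, minus strand) stood at 29170, 28120, 26219 and 26619 normalized counts in young control and at 23589, 22164, 20813 and 20851 in aged control libraries. No aged control library reached the young range (ratio 0.794, log2 fold change −0.33, −0.44 to −0.23, adjusted p = 7.41e-05). Zic1 values of Acsl6-/- mice were 25596, 25044, 25796 and 28132 when young and 21034, 21407, 21651 and 23124 when aged, again with no overlap (ratio 0.834, log2 fold change −0.26, −0.37 to −0.16, adjusted p = 0.000929). Zic1 had one of the narrowest spreads, with an SD of 4.2% to 6.0% of the mean in each group.

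Zic2 (chr14:122475435-122479852, plus strand) stood at 9640, 7947, 7792 and 8248 normalized counts in young control and at 7307, 7255, 6433 and 6667 in aged control libraries. The groups did not overlap, and the change passed the test (ratio 0.823, log2 fold change −0.28, −0.44 to −0.12, adjusted p = 0.0090). Without the libraries high in Ttr, a fit of fewer samples, it did not, at −0.11 with an adjusted p of 0.468. Zic2 values of Acsl6-/- mice were 7250, 7077, 7845 and 9047 when young and 7103, 6492, 7318 and 7568 when aged. These ranges overlapped and the difference did not pass (ratio 0.912, log2 fold change −0.13, −0.29 to 0.03, adjusted p = 0.242).

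Neurod1 (chr2:79452521-79456751, minus strand), the bHLH factor that drives granule cell differentiation and survival, stood at 10136, 11910, 11431 and 7880 normalized counts in young control and at 8535, 7737, 8891 and 8444 in aged control libraries. Young control 4 lay among the aged libraries. The ratio was 0.813 (log2 fold change −0.28, −0.49 to −0.07, adjusted p = 0.0397), a call close to the threshold. It was lost on leaving out young control 1, 2 or 3 (adjusted p = 0.0697, 0.136 and 0.123) or aged control 1, 2 or 4 (0.0642, 0.102 and 0.0679), and also under quantile normalization (−0.19, 0.127) and with only the 2 groups fitted (0.0547). Without young control 4 the log2 fold change was −0.41 (adjusted p = 0.00085), and without the libraries high in Ttr it was −0.52 (0.000442). Neurod1 values of Acsl6-/- mice were 10662, 10551, 11199 and 11263 when young and 7105, 8125, 9692 and 8734 when aged, with no overlap (ratio 0.771, log2 fold change −0.38, −0.60 to −0.17, adjusted p = 0.0096).

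Pax6 (chr2:105668900-105697364, plus strand), the paired-box factor of granule cell precursors and of unipolar brush cells, had the smallest fold with age in both genotypes. It stood at 2998, 2809, 3003 and 2940 normalized counts in young control and at 2659, 2477, 2760 and 2553 in aged control libraries. The groups did not overlap, and this small change passed the test (ratio 0.889, log2 fold change −0.17, −0.26 to −0.08, adjusted p = 0.0049). Without the libraries high in Ttr, a fit of fewer samples, it did not pass (−0.18, adjusted p = 0.0597). Pax6 values of Acsl6-/- mice were 2610, 2845, 2734 and 2774 when young and 2579, 2610, 2682 and 2827 when aged, which overlapped over nearly their whole range (ratio 0.976, log2 fold change −0.04, −0.12 to 0.05, adjusted p = 0.585).

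Etv1 (chr12:38779380-38870484, plus strand), an ETS factor that responds to activity in maturing granule cells, stood at 10165, 9110, 7998 and 8198 normalized counts in young control and at 7693, 7547, 7444 and 8245 in aged control libraries. The groups overlapped and the difference missed the threshold (ratio 0.872, log2 fold change −0.19, −0.36 to −0.03, adjusted p = 0.0730). It passed without young control 3 (−0.24, adjusted p = 0.0407) and with only the 2 groups fitted (0.0462). In Acsl6-/- mice the values were 8902, 8564, 10465 and 10736 when young and 7613, 7710, 9069 and 8107 when aged. Aged library 3 lay within the young range, and the call was close to the threshold (ratio 0.841, log2 fold change −0.25, −0.41 to −0.08, adjusted p = 0.0304). It was lost without young Acsl6-/- 3 or 4 (adjusted p = 0.1004 and 0.106), without aged Acsl6-/- 1, 2 or 4 (0.0815, 0.0837 and 0.0589), without the libraries high in Ttr (0.0660) and under quantile normalization (0.0593).

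Rbfox3 (chr11:118489762-118911597, minus strand) encodes the splicing factor known as the antigen NeuN, which marks granule cells and most other neurons but not Purkinje cells. It stood at 11519, 11566, 12381 and 9831 normalized counts in young control and at 9052, 8788, 7997 and 8326 in aged control libraries. No aged library reached the lowest young one (ratio 0.754, log2 fold change −0.40, −0.54 to −0.26, adjusted p = 0.000186). In Acsl6-/- mice the values were 10224, 10859, 10289 and 11122 when young and 8537, 7610, 9443 and 8775 when aged, with no overlap (ratio 0.809, log2 fold change −0.31, −0.45 to −0.17, adjusted p = 0.0025).

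**Figure D2:**
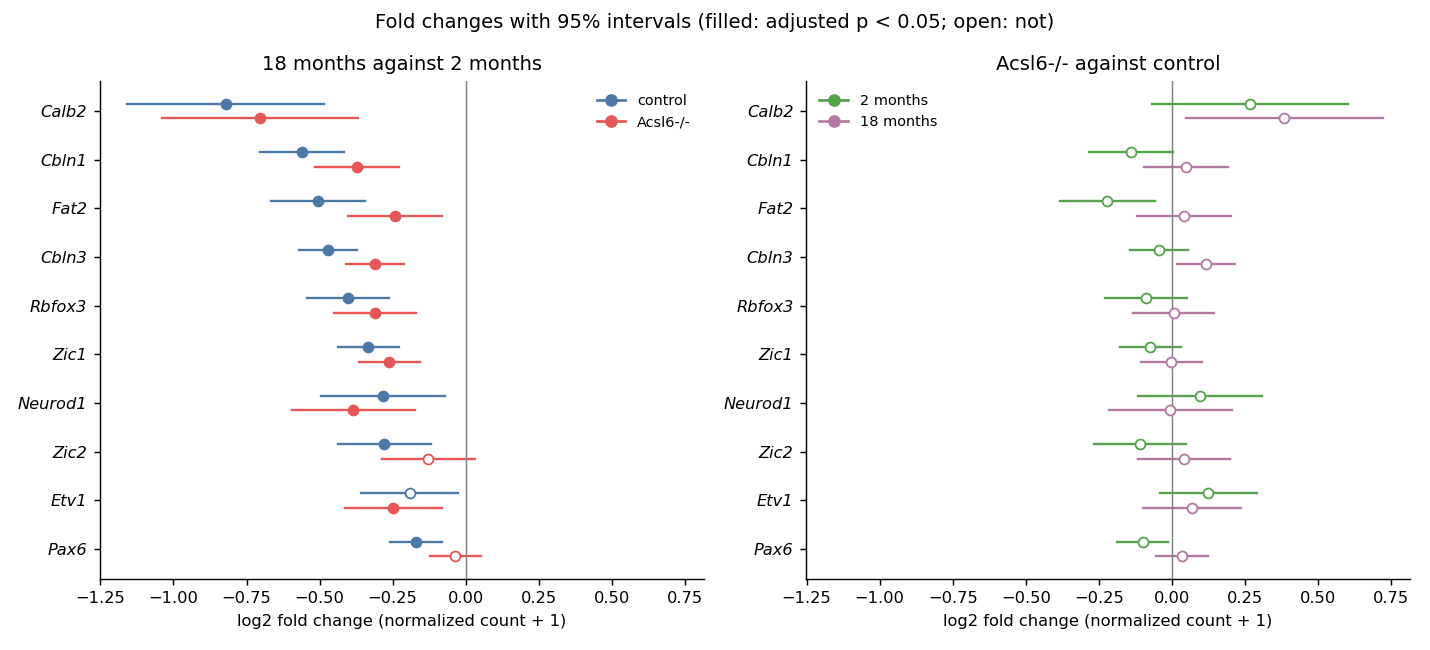
Log2 fold change of normalized count + 1 (x axis) for each granule cell gene (y axis), with 95% intervals from limma, for age in each genotype (left panel) and genotype at each age (right panel). Filled points passed an adjusted p under 0.05 and open points did not. All 20 age folds lie below 0, from −0.82 to −0.04, and all 20 genotype folds are open.

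Loss of Acsl6 changed none of the 10 genes past the threshold at either age. At 2 months 0 of 10 passed with limma, edgeR or DESeq2, beside 0.211% of all genes called with limma, and 2 of 10 were under an unadjusted p of 0.05 where 12.1% of all genes were. These were Fat2, at a mean of 17526 ± 912 (SD, n = 4) in Acsl6-/- against 20460 ± 1725 in control mice, with every Acsl6-/- library under every control library (log2 fold change −0.22, −0.38 to −0.06, adjusted p = 0.253), and Pax6, at 2741 ± 98.4 against 2938 ± 90.3 (−0.10, −0.19 to −0.01, adjusted p = 0.337). The highest young Acsl6-/- value of Fat2, 18441, lay just below the lowest young control value, 18661. At 2 months 7 members had folds below 0 and 3 above 0, and the median was −0.08.

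At 18 months 0 of 10 passed with any of the 3 tools, beside 0.241% of all genes called with limma, and 2 of 10 were under an unadjusted p of 0.05 where 9.15% of all genes were. Cbln3 stood at 24016 ± 1307 (SD, n = 4) in aged Acsl6-/- against 22136 ± 1010 in aged control mice (log2 fold change 0.12, 0.02 to 0.22, adjusted p = 0.458). Calb2 stood at 5335 ± 1482 against 4000 ± 445 (0.38, 0.05 to 0.72, adjusted p = 0.478), and aged Acsl6-/- 3, at 7481, lay above every other aged library. Both pairs of groups overlapped. Of the members 8 had folds above 0 and 2 below, with a median of 0.04. For Rbfox3 the interval of the genotype difference at 18 months was −0.13 to 0.15, and for Zic1 it was −0.11 to 0.10 on the log2 scale.

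The test of whether the genotype difference at 18 months departed from that at 2 months (the interaction) called 0 of 10 members with limma, edgeR or DESeq2, beside 0.0176% of all genes with limma. Cbln3 (0.16, 0.02 to 0.30), Fat2 (0.26, 0.03 to 0.49) and Pax6 (0.13, 0.01 to 0.26) were under an unadjusted p of 0.05 where 10% of all genes were, and their adjusted p values were 0.427, 0.428 and 0.460. The log2 interaction was above 0 for 8 of the 10 members and below 0 for Neurod1 and Etv1. A call in 1 genotype and not in the other, as for Zic2, Pax6 and Etv1, is therefore not shown to be a difference between the genotypes. The genotype and age comparisons share libraries, so that a high or low group enters more than 1 of them.

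Levels can be set beside each other between genes only per length. Per kilobase of merged exons in young control mice, Cbln1 stood at 6504 ± 428 normalized counts (SD, n = 4), Cbln3 at 6305 ± 338, Zic1 at 4836 ± 240, Calb2 at 4123 ± 897, Neurod1 at 3789 ± 661, Zic2 at 2919 ± 293, Rbfox3 at 1946 ± 184, Fat2 at 1408 ± 119, Etv1 at 667 ± 74.5 and Pax6 at 251 ± 7.73. Cbln1 and Cbln3, and likewise Calb2 and Neurod1, differed by less than the SD of either, whereas Zic1 and Calb2 differed by less than the SD of Calb2 but by more than that of Zic1. Merged exons add up those of all transcripts of a gene, which lowers the value of genes with many forms such as Pax6 and Etv1. In aged control mice the order of the means changed: Cbln3 was at 4549 ± 208, Cbln1 at 4410 ± 313, Zic1 at 3839 ± 231 and Neurod1 at 3079 ± 177, and Calb2, at 2295 ± 255, came next to Zic2, at 2401 ± 150. Cbln3 and Cbln1, and likewise Calb2 and Zic2, differed there by less than the SD of either. Calb2 lay below Neurod1 by more than the SD of either.

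A wider list of 24 other genes of granule cells was counted in the same way. Like the members, it was chosen with earlier results of these data known. In control mice 15 of 24 were called lower with age and 0 higher, against 16% and 15.3% of all genes. Their median log2 fold change was −0.20, with 22 folds below 0 and 2 above. In Acsl6-/- mice 12 were called lower and 0 higher, against 11.6% each of all genes, with a median of −0.15. There 19 folds were below 0 and 5 above. Slc17a7, the vesicular glutamate transporter of parallel fibers, stood at 13452 to 14191 normalized counts in young control and 8029 to 8960 in aged control libraries (log2 fold change −0.69 ± 0.0443 SE, adjusted p = 1.01e-08), and at 12228 to 13866 and 8139 to 8981 in Acsl6-/- mice (−0.64 ± 0.0443, adjusted p = 2.34e-08). Grin2c, the NMDA receptor subunit of mature granule cells, stood at 12445 to 14605 in young control and 8153 to 8863 in aged control libraries (−0.66 ± 0.0600, adjusted p = 5.13e-07) and had a log2 fold change of −0.46 ± 0.0600 in Acsl6-/- mice (adjusted p = 2.80e-05). The age ranges of both genes did not overlap in control mice. Grm4, the presynaptic glutamate receptor of parallel fibers, had log2 fold changes of −0.77 ± 0.0724 in control and −0.52 ± 0.0724 in Acsl6-/- mice (adjusted p = 7.13e-07 and 5.85e-05). Nfic, a nuclear factor I family member, had −0.51 ± 0.0409 and −0.43 ± 0.0409 (adjusted p = 1.36e-07 and 9.78e-07). By genotype limma and edgeR called 0 of the 24 at 2 months, at 18 months and in the interaction, and DESeq2 called 0, 1 and 0. Under an unadjusted p of 0.05 in limma were 9, 3 and 3 of the 24, where 12.1%, 9.15% and 10% of all genes were. Without the libraries high in Ttr, 14 and 10 of the 24 were called lower with age in control and Acsl6-/- mice. In that fit of fewer samples 1434 and 1833 of all genes were called lower.

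**Figure D3:**
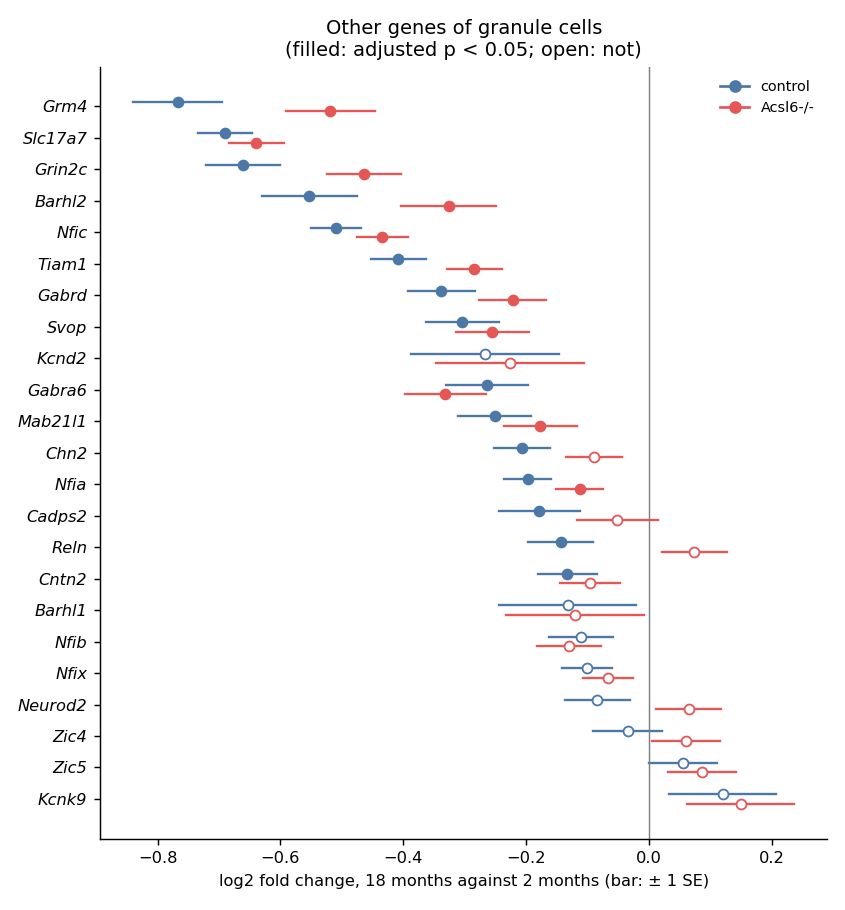
Log2 fold change with age of 23 of the 24 other granule cell genes (y axis), 18 months against 2 months, in control and Acsl6-/- mice. Bars are ± 1 SE from limma, filled points passed an adjusted p under 0.05 and open points did not. Called genes all lie below 0, led by Grm4 at −0.77 and Slc17a7 at −0.69 in control mice.

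Genes of the precursor stage and of the cerebellin partners gave a mixed picture. Of 10 measured precursor genes, 2 were called lower and 1 higher with age in control mice, and 1 and 0 in Acsl6-/- mice. Beside them, 16% of all genes were called lower and 15.3% higher in control, and 11.6% each in Acsl6-/- mice. Which cells of the adult tissue gave the reads of these genes was not tested. Ccnd1, the cyclin driven by Sonic hedgehog in dividing precursors, stood at 470 to 701 normalized counts in young control libraries. In aged control libraries it stood at 299 to 352, with no overlap (log2 fold change −0.95 ± 0.126, adjusted p = 2.47e-05). It was also lower in Acsl6-/- mice (−0.86 ± 0.126, adjusted p = 9.42e-05). Gli1, a hedgehog target, was called lower (−0.35 ± 0.0622, adjusted p = 0.000336) and Ccnd2 higher (0.91 ± 0.163, adjusted p = 0.000394) with age in control mice, and neither was called in Acsl6-/- mice (adjusted p = 0.583 and 0.136). Of 8 partners and relatives of the cerebellins, 2 were called lower and 1 higher with age in control mice, and 2 and 0 in Acsl6-/- mice. Nrxn2, a neurexin, was lower with age in control (−0.57 ± 0.0487, adjusted p = 2.63e-07) and Acsl6-/- mice (−0.41 ± 0.0487, adjusted p = 1.20e-05). Cbln2, a cerebellin of other neurons, lay at 0.964 to 17.2 normalized counts in young control and 8.42 to 84.6 in aged control libraries and was called higher in control mice (2.90 ± 0.858, adjusted p = 0.0153), at levels of few reads and with overlapping groups.

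Among 18 measured paralogs of the members, Etv4, an ETS factor, and Rbfox1, a splicing factor, were called lower with age in both genotypes. Etv4 had log2 fold changes of −0.55 ± 0.103 in control and −0.42 ± 0.103 in Acsl6-/- mice (adjusted p = 0.000589 and 0.00596), and Rbfox1 had −0.32 ± 0.0729 and −0.38 ± 0.0729 (0.00258 and 0.000971). Pax2 (−0.22, adjusted p = 0.0288) and Fat1 (−0.14, adjusted p = 0.0389) were also lower in control mice. In Acsl6-/- mice Pvalb (−0.17, adjusted p = 0.0409) was lower, and Fat3 (0.60, adjusted p = 0.00269) and Rbfox2 (0.12, adjusted p = 0.0211) were higher. In all, 4 paralogs were called lower and 1 higher in control mice, and 4 and 2 in Acsl6-/- mice, beside 16% lower and 15.3% higher of all genes in control and 11.6% each in Acsl6-/- mice, so nothing is read from these counts about the paralogs.

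Genes of the other cell types of the tissue were counted in the same way, to be read beside 16% of all genes called lower and 15.3% called higher with age in control mice and 11.6% each in Acsl6-/- mice. Their part in the results above was not tested. The summed level of 13 Purkinje cell genes was 0.990% to 1.02% of all normalized counts in young control and 0.956% to 1.03% in aged control libraries, and 0.976% to 1.08% and 1.02% to 1.14% in Acsl6-/- mice, ranges that overlapped. Of these genes 1 was called with age in control mice (Foxp2, higher, 0.54, adjusted p = 0.00325) and 3 in Acsl6-/- mice (Pcp4 and Pvalb lower, Itpr1 higher). Of 11 inhibitory interneuron genes, 2 were called lower and 1 higher in control mice and 1 lower and 2 higher in Acsl6-/- mice, with Lgi2 lower and Gad1 higher in both, and their sum stayed between 0.145% and 0.175% in every library.

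All 8 microglial genes were called higher with age in each genotype, and their sum went from 0.00763% to 0.00958% in young control to 0.0164% to 0.0187% in aged control libraries and from 0.00937% to 0.0116% to 0.0193% to 0.0253% in Acsl6-/- mice. Of 10 Bergmann glia and astrocyte genes 5 were called higher (Gfap, Aqp4, Hopx, Aldh1l1 and Gja1) and 2 lower (Slc1a3 and Fabp7) in control mice, and 3 higher and 2 lower in Acsl6-/- mice, with a sum of 0.286% to 0.293% in young control and 0.317% to 0.339% in aged control libraries, and 0.303% to 0.316% and 0.324% to 0.334% in Acsl6-/- mice. Of 9 oligodendrocyte genes 3 were called lower with age in control mice (Cldn11, Opalin and Cnp) and 8 in Acsl6-/- mice. Their sum was 0.455% to 0.513% in young control and 0.3598% to 0.554% in aged control libraries, and 0.500% to 0.650% in young and 0.369% to 0.466% in aged Acsl6-/- libraries. None of the genes of these lists was at 0 in any library.

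Of 7 unipolar brush cell genes, 1 was called higher (Plcb4) and 2 lower with age in control mice, where 15.3% and 16% of all genes were. In Acsl6-/- mice 0 were called, where 11.6% of all genes were called higher and 11.6% lower. There 1 was under an unadjusted p of 0.05 (limma), where 35.1% of all genes were. Eomes, their defining factor, stood at 613 to 1027 normalized counts in young control and 1199 to 1308 in aged control libraries, and at 396 to 1644 in young and 700 to 1566 in aged Acsl6-/- libraries. The control ranges did not overlap, but Eomes passed the test in neither genotype (log2 fold change 0.78, adjusted p = 0.0751, and 0.11, adjusted p = 0.842). Lmx1a, another of them, varied most between libraries of 1 group, from 4.92 to 53.5 normalized counts in young control, highest in library 4, and from 2.64 to 39.6 in aged Acsl6-/- mice, lowest in library 3. Of 5 measured genes of cerebellar nuclei, brainstem and midbrain neurons, 1 was called higher with age in each genotype, and their sum was 422 to 698 normalized counts in young control libraries, highest in library 4, and 813 to 1007 in aged control libraries, with no overlap. In Acsl6-/- mice it was 433 to 985 when young and 630 to 1111 when aged, lowest in library 3 of the aged group, and these ranges overlapped. The part of these genes in the members' values was not tested.

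Of the 8 choroid plexus genes limma called 0 in the age comparisons, with 0 under an unadjusted p of 0.05, but their sum ranged from 0.00318% to 0.142% over all libraries. Of 6 endothelial genes Slco1a4 was called lower and Flt1 higher with age in both genotypes, and of 4 measured forebrain genes Ppp1r1b was called lower in control mice.

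**Figure D4:**
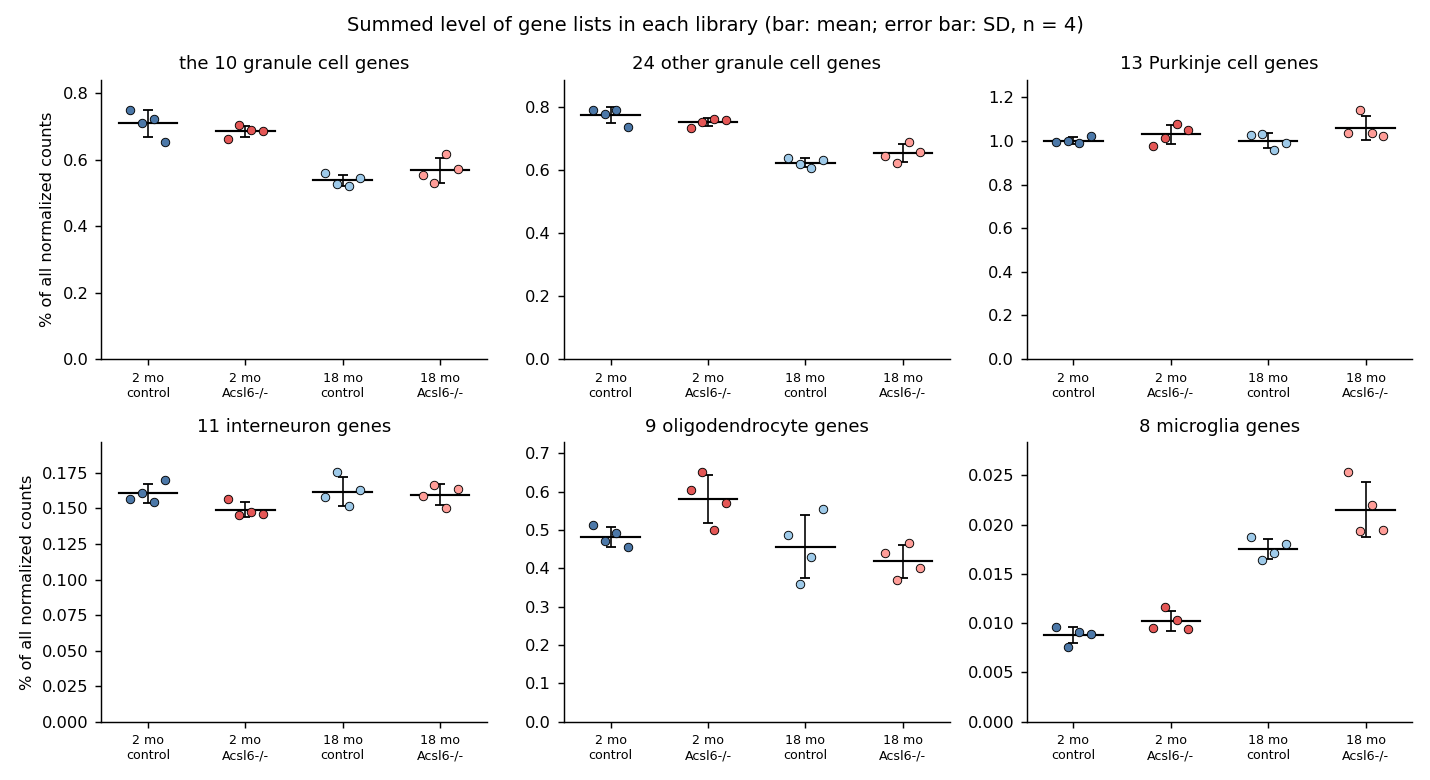
Summed normalized counts of 6 gene lists as a percentage of all normalized counts (y axis, from 0) in each library, by group. Points are libraries, bars means and error bars the SD of 4 libraries. The 10 granule cell genes and 24 other granule cell genes sit lower in the aged groups, the Purkinje cell and interneuron genes overlap between ages, and the microglial genes sit higher in the aged groups.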

How the data were processed

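Cerebellar RNA of 16 libraries was measured by RNA-Seq of poly(A) RNA. The deposited signal is the authors' normalized count: reads were trimmed with Trimmomatic 0.36, aligned to GRCm38 with STAR 2.5.2b (versions from the submitters' processing notes), counted per gene in exons with featureCounts, and divided by 1 size factor per library. Which filter left 17074 genes and which strand was counted are not given in the sources used here, so reads of a gene and of an overlapping antisense gene cannot be told apart. All values of all 16 libraries were whole multiples of 1 step within 0.001 steps, which gave back the reads. In 2 libraries (aged control 3 and 4) no value was as low as 1 step, and the step was taken from the gaps between low values.

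The main test was limma 3.58.1 in R 4.3.3 on log2(normalized count + 1). It was run on 17042 genes whose mean reached 10, in 1 model that held the 4 groups, and its variances were moderated along their trend on the mean level. The p values are two-sided and adjusted by the Benjamini-Hochberg method over all genes tested. Fold changes are on the log2(normalized count + 1) scale, ratios are of group means of normalized counts, and intervals are at 95%. The intervals give the uncertainty of a difference between group means, estimated from the moderated variance between libraries. The study itself tested counts with DESeq2.

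Each result was recomputed with 5 added in place of 1, without the filter or with a mean of 50 as its floor, with TMM rescaling or quantile normalization, array weights, a fit of just the 2 groups of a comparison, the replicate number as a block, without each library or without the 5 libraries with Ttr above 5000, and with edgeR 4.0.16 and DESeq2 1.42.0 on the recovered reads. The counts of other granule cell genes under these alternatives were added after the values were seen. The members and gene lists were chosen with earlier results of these data known. Named genes are the 10 members, Acsl6, Ttr, Gm42418 and, for each list, up to 4 called genes per direction with the smallest p. Eomes, Lmx1a and the further called genes named in the lists of glia and paralogs are named beyond this rule, after their values had been looked at. Gene symbols, positions and merged exon lengths came from GENCODE M21 (GRCm38), which named 17020 of the genes, and promoter sequences from RefSeq (GRCm38.p6). Some genes of the lists are not reported here by name.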

Additional observations from a re-analysis of the deposited data

Results flagged for a closer look

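The libraries of each group were searched for 1 that stands apart from the other 3 by Dixon's ratio (gap to the nearest value over the range of the group against the 95% critical value for 4 values). Of 60 groups of values tested, 4 passed, and of the 40 groups of the members' values 2 passed. Chance alone passes about 1 in 20. Calb2 in young control mice was low in library 4, at 4847 normalized counts against 7879 for the next. Cbln1 in young Acsl6-/- mice was high in library 2, at 19831 against 17447. Ttr in aged Acsl6-/- mice was high in library 1, at 12123 normalized counts, and Gm42418 in aged control mice was high in library 3, at 686717. Cbln1 stayed lower with age in Acsl6-/- mice and Calb2 in control mice in each of the 16 fits that left out 1 library, with log2 fold changes of −0.42 to −0.31 and −1.001 to −0.75. Only fits that left out a library of the 2 groups compared could change these folds.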

How the results depend on the processing

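The count of members called in the genotype comparisons and the interaction was 0 under every alternative run. With age in control mice it was 9, 8 under quantile normalization, 7 without the libraries high in Ttr, and 8 to 9 on leaving out each library. All genes called lower there were 2723, and in the same order 2903, 1434 and 2224 to 2765. With age in Acsl6-/- mice it was 8, 6 under quantile normalization, 7 without the libraries high in Ttr, and 6 to 8 on leaving out each library, with 6 without young 3 or aged 1, 2 or 4. All genes called lower there were 1976, and in the same order 2001, 1833 and 1569 to 2013. All 540 age folds of the members under the alternatives were below 0. Many of these could only repeat the main fold, such as those that left out a library of the other genotype. The other granule cell genes called lower with age were 10 to 16 in control and 9 to 13 in Acsl6-/- mice. Over the same alternatives 1434 to 2935 and 1569 to 2107 of all genes were called lower. DESeq2 called 1 of the other granule cell genes higher by genotype at 18 months.

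None of the folds that changed sign was called, as first fitted or under the alternative. Under quantile normalization the genotype fold at 18 months was 0.0082 for Zic1 and −0.0077 for Rbfox3. With array weights it was 0.0062 for Neurod1 and 0.013 for Zic1. With edgeR and DESeq2 it was 0.0037 and 0.0019 for Neurod1. Without the libraries high in Ttr it was 0.119 for Neurod1, −0.048 for Cbln1, −0.034 for Zic2 and −0.057 for Rbfox3, the genotype fold at 2 months was −0.096 for Neurod1, and the interaction was 0.216 for Neurod1 and −0.016 for Zic2. On leaving out each library, the genotype fold at 18 months ran from −0.076 to 0.073 for Neurod1, −0.027 to 0.11 for Fat2, −0.031 to 0.035 for Zic1 and −0.041 to 0.063 for Rbfox3, that at 2 months from −0.029 to 0.17 for Neurod1, and the interaction from −0.18 to 0.023 for Neurod1 and −0.057 to 0.30 for Calb2. The cause was not tested.

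The replicate block gave 9 and 8 members called with age and 0 otherwise, and 5032 and 3675 of all genes with age. The numbers were not taken to pair libraries, since 4 of 24 same-number pairs correlated above 0.1 (r from −0.20 to 0.21). Over all genes, the 36, 41 and 3 calls of genotype at 2 months, at 18 months and of the interaction became 227, 164 and 87 with DESeq2, 69, 63 and 6 with array weights, and 13, 23 and 0 without the libraries high in Ttr, the 36 became 57 at a mean of at least 50, the 41 became 16 with only the 2 groups, and the 5333 age calls in control mice became 2789 without the libraries high in Ttr, a fit of fewer samples. Leaving out each library gave 16 to 113, 16 to 53 and 0 to 11. With 4 libraries a group, the precision of each genotype fold is that of its interval.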
